A study of Mus musculus with 12 samples.

Results

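The genes described here are 36 genes of cholesterol and fatty acid metabolism, measured in mouse neutrophils with and without granulocyte colony-stimulating factor (G-CSF), a cytokine that acts on neutrophils through the transcription factor STAT3. They were chosen by name, as enzymes of sterol synthesis, enzymes of fatty acid synthesis, and genes that control, move or export sterol. All 36 of 36 names were found among the 13935 rows of the deposited table. All 36 also passed the filter on low values, a mean of at least 10 normalized counts over the libraries, which 13915 rows passed. RNA was sequenced from bone marrow cells sorted for surface CD45, CD11b and Ly6G, in 12 libraries. The 4 groups had 3 libraries each: LysMcre Socs3fl/fl cells with 10 ng/ml G-CSF, LysMcre Socs3fl/fl cells left untreated, Socs3fl/fl cells with 10 ng/ml G-CSF, and Socs3fl/fl cells left untreated. All cells were kept for 8 h after the sort in a medium with fetal bovine serum, untreated ones included. In Socs3fl/fl mice, called floxed here, the gene of the STAT3 feedback inhibitor SOCS3 is flanked by loxP sites. The controls therefore carry the floxed allele too. LysMcre stands for Cre driven by the lysozyme 2 gene, which is active in myeloid cells and is meant to delete Socs3 there. Whether a group pools or separates mice is not stated in the labels, so each p-value reflects library-to-library spread only, and that spread may be technical.

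Cells make cholesterol from acetyl-CoA through mevalonate, the isoprenoid diphosphates, squalene and lanosterol. SREBP transcription factors switch on the genes of this route when sterol in the endoplasmic reticulum is low: SCAP escorts SREBP out of that membrane and INSIG proteins hold it there. Liver X receptors (LXR), which sense oxidized sterols, switch on genes of sterol export, and together with SREBP1 also genes of fatty acid synthesis.

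Libraries held between 19495754 and 26472118 recovered reads, and 3 reads were worth 2.57 to 3.54 normalized counts, so the lowest member value in any library, 54.3 normalized counts, stood well above the counting floor. Socs3 itself was not lower by label: it averaged 37335 ± 1219 normalized counts in LysMcre-labelled libraries with G-CSF and 292 ± 34.5 without, against 19504 ± 1635 and 225 ± 23.1 in floxed libraries (SD, n = 3 each). These gene-level values go against the deletion that the label names, and they do not tell which part of the gene was read, so groups are called LysMcre-labelled throughout and directions by genotype are directions by label. Lyz2, the gene at the Cre locus, did separate the labels, at 569 ± 64.8 and 6053 ± 493 normalized counts in LysMcre-labelled libraries with and without G-CSF, against 46227 ± 2464 and 222590 ± 3235 in floxed libraries. The 12 neutrophil markers summed to between 1800900 and 2160100 normalized counts in every group, but single markers moved in opposite directions: with G-CSF 4 rose and 7 fell in each genotype, and with G-CSF 2 were higher and 7 lower by genotype label. Retnlg, a neutrophil marker, averaged 17215 with G-CSF, against 146190 without, in LysMcre-labelled libraries. The 9 monocyte and macrophage markers in the table summed to 15808 to 18128 in LysMcre-labelled G-CSF libraries, against 20931 to 22976 in LysMcre-labelled untreated ones, and to 17123 to 20205 in floxed G-CSF libraries, against 21690 to 22289 in floxed untreated ones. Single markers moved both ways there too. At a limma adjusted p under 0.05, 3 of the 9 rose with G-CSF and 2 fell in LysMcre-labelled libraries. In floxed libraries 4 rose and 2 fell. Ly6c2 averaged 2254 with G-CSF, against 10061 without, in LysMcre-labelled libraries, and 4871 against 11062 in floxed ones. No marker of either list was at 0 in all libraries of a group. The 3 erythroid markers in the table summed to 1017 in 1 LysMcre-labelled untreated library and 652 in 1 floxed untreated library, and to at most 234 in the G-CSF libraries. The 7 eosinophil, basophil and mast cell markers summed to 2865 to 2978 in LysMcre-labelled G-CSF libraries, against 1938 to 2927 in untreated ones, and to 2720 to 3491 in floxed G-CSF libraries, against 1476 to 2173. Of these 7, 1 rose and 0 fell at that threshold in LysMcre-labelled libraries, and 2 rose and 0 fell in floxed libraries. Siglecf averaged 1396 with G-CSF, against 455 without, in LysMcre-labelled libraries, and 1270 against 369.5 in floxed ones. The 6 progenitor markers summed to 11794 to 13029 in LysMcre-labelled G-CSF libraries, against 8411 to 8644 in untreated ones, and to 9297 to 11321 in floxed G-CSF libraries, against 6139 to 9938. Of these 6, 1 rose and 2 fell at that threshold in LysMcre-labelled libraries, and 1 rose and 1 fell in floxed libraries. Kit averaged 6166 with G-CSF, against 800 without, in LysMcre-labelled libraries, and 2933 against 783 in floxed ones. The 4 stromal, endothelial and adipocyte markers in the table summed to 1327 to 1506 in LysMcre-labelled G-CSF libraries, against 801 to 920 in untreated ones, and to 756 to 792 in floxed G-CSF libraries, against 704 to 840. Of these 4, 1 rose and 1 fell at that threshold in each genotype. Pecam1 averaged 1326 with G-CSF, against 679 without, in LysMcre-labelled libraries, and 701 against 601 in floxed ones. The 6 B cell markers summed to 9441 to 16363 in LysMcre-labelled G-CSF libraries, against 10821 to 17106 in untreated ones. Floxed sums were 6121 to 9558 with G-CSF, against 7936 to 11225. Of these 6, 1 fell in LysMcre-labelled libraries and 0 were called in floxed ones. The 6 T and NK cell markers in the table summed to 175 to 197 in LysMcre-labelled G-CSF libraries, against 436 to 483. Floxed sums were 198 to 237, against 355 to 421. In each genotype 1 fell and 0 rose. The 4 dendritic cell markers in the table summed to 497 to 512 in LysMcre-labelled G-CSF libraries, against 602 to 677. Floxed sums were 502 to 540, against 483 to 602. Of these 4, 2 fell in LysMcre-labelled and 1 in floxed libraries, and 0 rose. The 5 platelet and megakaryocyte markers summed to 625 to 891, against 581 to 735. Floxed sums were 500 to 907, against 422 to 686. Of these 5, 1 fell in LysMcre-labelled libraries and 0 were called in floxed ones. The part of these markers in the members' differences was not tested. In such bulk libraries, fewer cells of a type and less RNA per cell cannot be told apart.

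Start-proximal sequence was available for 29 of the 36 members. Each window held 250 bases before a RefSeq start and 50 after it, on the mouse build GRCm38.p6, and was searched on both strands. CCAAT, the letters bound by NF-Y, a usual partner of SREBP, was found for 14 of 15 sterol synthesis genes (93.3%) and for 3 of 5 fatty acid synthesis genes (60%), and for 42.9% of the genes in the deposited table that have a window. The sterol regulatory element TCACNCCAC was found only in the window of Hmgcs1 among the 29 members, and in 1.42% of the table's genes. The E-box CACGTG was found for 7 of 29 members (24.1%), against 11.7% of the table's genes. The nuclear receptor element AGGTCA was found for 5 of 29 (17.2%), against 15.1%. Such a match is a description of the letters only. The 250 bases before the start are shown for 7 members on which the results below turn, in lower case with matches to these 4 motifs in capitals, read 5′ to 3′ on the strand of the gene. Hmgcs1 (plus strand, chr13:119690101-119690350) is the member with the sterol regulatory element. Idi1 (plus strand, chr13:8885356-8885605) and Lss (plus strand, chr10:76531355-76531604) are the sterol enzymes that rose most with G-CSF in LysMcre-labelled libraries. Tm7sf2 (minus strand, chr19:6067851-6068100) is the sterol enzyme that fell. Insig1 (plus strand, chr5:28071162-28071411), Fasn (minus strand, chr11:120824548-120824797) and Abca1 (minus strand, chr4:53159896-53160145) stand for feedback, fatty acid synthesis and export.
Hmgcs1: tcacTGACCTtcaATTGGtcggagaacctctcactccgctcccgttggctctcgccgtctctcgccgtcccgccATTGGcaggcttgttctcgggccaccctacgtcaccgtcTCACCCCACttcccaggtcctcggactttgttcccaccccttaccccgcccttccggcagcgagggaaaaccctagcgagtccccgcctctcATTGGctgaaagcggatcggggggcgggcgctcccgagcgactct
Idi1: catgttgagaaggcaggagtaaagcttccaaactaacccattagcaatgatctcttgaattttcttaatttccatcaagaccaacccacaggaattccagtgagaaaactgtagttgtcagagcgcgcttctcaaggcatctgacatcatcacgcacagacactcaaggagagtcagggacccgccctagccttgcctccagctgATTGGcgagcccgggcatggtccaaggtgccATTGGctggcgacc
Lss: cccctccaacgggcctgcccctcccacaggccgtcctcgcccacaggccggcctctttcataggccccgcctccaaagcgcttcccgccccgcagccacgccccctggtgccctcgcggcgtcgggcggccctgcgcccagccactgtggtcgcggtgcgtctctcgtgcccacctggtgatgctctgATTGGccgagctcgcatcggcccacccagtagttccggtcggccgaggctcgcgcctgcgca
Tm7sf2: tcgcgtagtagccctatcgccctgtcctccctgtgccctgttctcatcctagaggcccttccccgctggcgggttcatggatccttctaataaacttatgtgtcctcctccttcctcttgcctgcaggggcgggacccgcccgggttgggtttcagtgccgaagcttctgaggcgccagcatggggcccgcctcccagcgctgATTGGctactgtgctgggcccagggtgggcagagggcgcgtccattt
Insig1: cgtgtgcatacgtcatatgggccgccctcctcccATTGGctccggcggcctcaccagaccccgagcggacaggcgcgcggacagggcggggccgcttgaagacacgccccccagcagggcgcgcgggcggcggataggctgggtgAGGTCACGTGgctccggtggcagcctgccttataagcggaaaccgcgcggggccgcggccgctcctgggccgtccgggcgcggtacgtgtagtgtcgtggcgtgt
Fasn: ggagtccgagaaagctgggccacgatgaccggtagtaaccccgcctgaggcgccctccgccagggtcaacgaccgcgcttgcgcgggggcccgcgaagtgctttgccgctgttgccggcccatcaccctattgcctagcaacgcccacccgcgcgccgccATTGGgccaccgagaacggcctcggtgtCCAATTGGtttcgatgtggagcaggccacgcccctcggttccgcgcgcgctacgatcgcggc
Abca1: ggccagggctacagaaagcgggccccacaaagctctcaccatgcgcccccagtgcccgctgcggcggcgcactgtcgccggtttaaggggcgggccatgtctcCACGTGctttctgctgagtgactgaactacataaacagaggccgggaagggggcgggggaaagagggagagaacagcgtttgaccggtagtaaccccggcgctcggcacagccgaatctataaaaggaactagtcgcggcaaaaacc
In Hmgcs1 the sterol regulatory element starts at position -137 relative to the start, and reads TCACCCCAC. The CCAAT letters, printed as ATTGG where they lie on the other strand, stand at -62 in Lss and at -47 in Tm7sf2, so their presence is shared by sterol enzymes that moved in opposite directions. In Insig1 the receptor element at -105 and the E-box at -101 overlap. In Fasn a pair of CCAAT matches on opposite strands, at -62 and -59, overlap as well. The Abca1 stretch holds an E-box at -147 and no CCAAT.

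Levels of the members spanned a wide range, here compared between genes as mean normalized counts per kilobase of annotated exon. In floxed untreated libraries the highest were Mvd, the mevalonate diphosphate decarboxylase, with 1357, Acly with 1241, Nr1h2 with 1027 and Srebf2 with 849 per kilobase. The lowest were Elovl6 with 15.5, Lss with 16.4, Acaca with 23.2 and Dhcr7 with 25.1 per kilobase. Mvd, Acly, Nr1h2 and Srebf2 were therefore abundant transcripts in these neutrophils without G-CSF. The coefficient of variation within a group of 3 libraries had a median of 6.07% over members and groups, and ran between 0.687% and 54.5%. Its highest values belonged to Scd1 in floxed libraries.

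**Figure D1:**
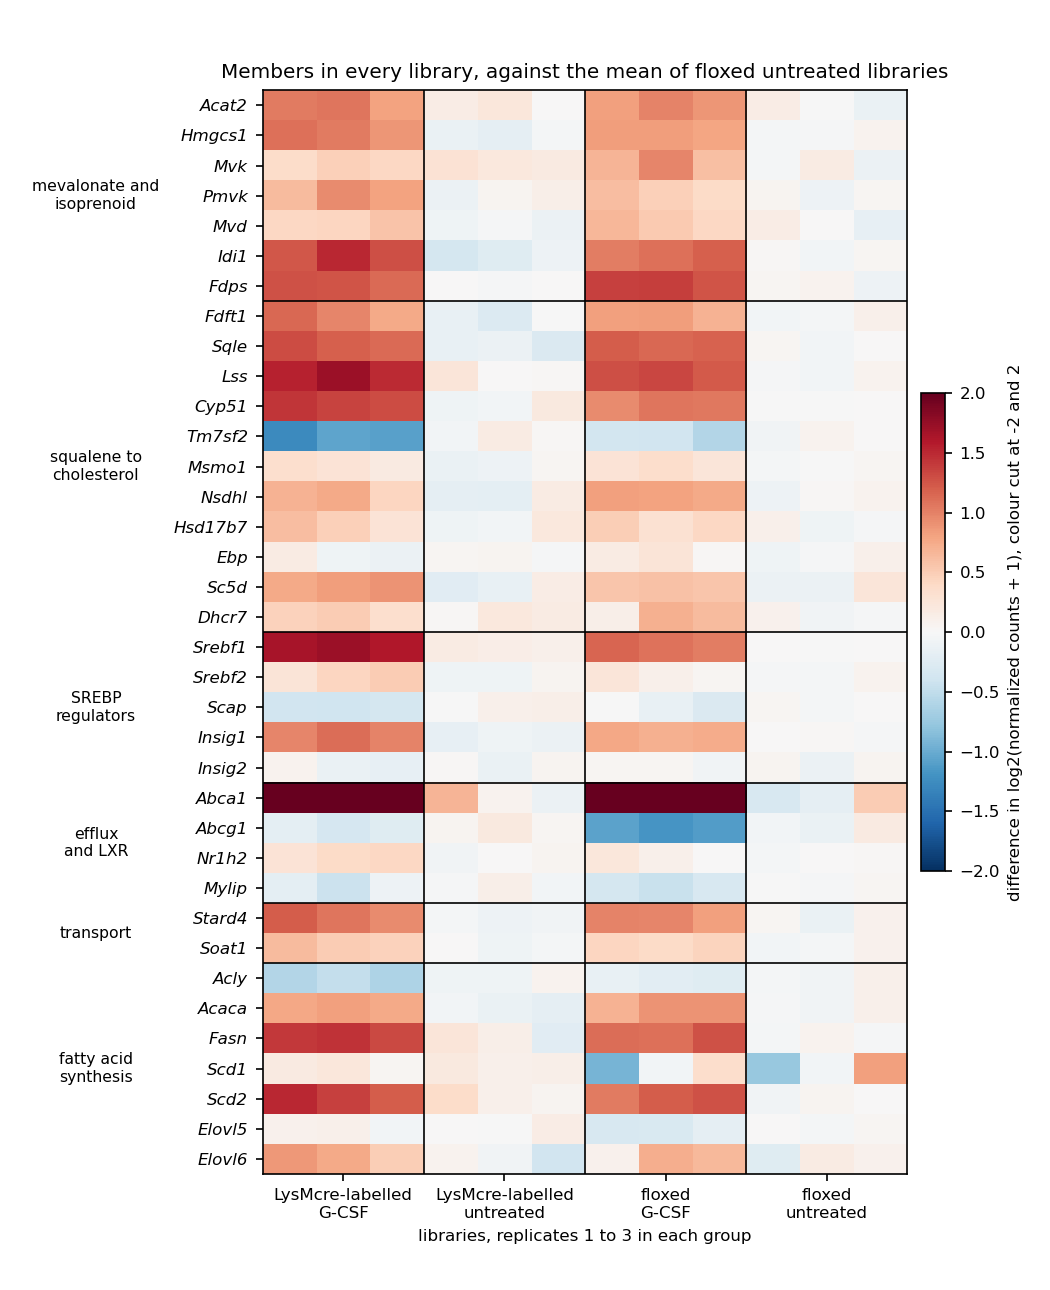
Each cell is 1 member in 1 library, coloured by log2(normalized counts + 1) minus the mean of the 3 floxed untreated libraries, with colours cut at -2 and 2. Rows are grouped by role and columns by group. Most rows of the sterol enzymes are red in both G-CSF groups, Tm7sf2 and Acly are blue there, and Abcg1 is bluest in floxed G-CSF libraries.

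G-CSF raised most of these genes in both genotypes. Differences are on the log2(normalized counts + 1) scale, and a gene was called when limma's p-value, adjusted over all 13915 genes, was under 0.05. In LysMcre-labelled libraries, 25 of 36 members rose with G-CSF and 5 fell, where 31.1% of all genes tested were called higher and 31.6% lower. In floxed libraries, 25 of 36 rose and 5 fell, where 24.1% of all genes were called higher and 24.6% lower. The median member difference was 0.74 in LysMcre-labelled and 0.55 in floxed libraries, and the median over all genes was 0.00 in both. Scaling all libraries to equal totals shifted the median of all genes to -0.26 in LysMcre-labelled and -0.09 in floxed libraries, and the share of calls that were higher to 31.2% and 38.5%, from 49.6% and 49.5% as deposited. Under that scaling 22 members rose and 8 fell in LysMcre-labelled libraries, where 20.6% of all genes were called higher and 45.4% lower. In floxed libraries 24 rose and 6 fell, where 19% of all genes were called higher and 30.3% lower.

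**Figure D2:**
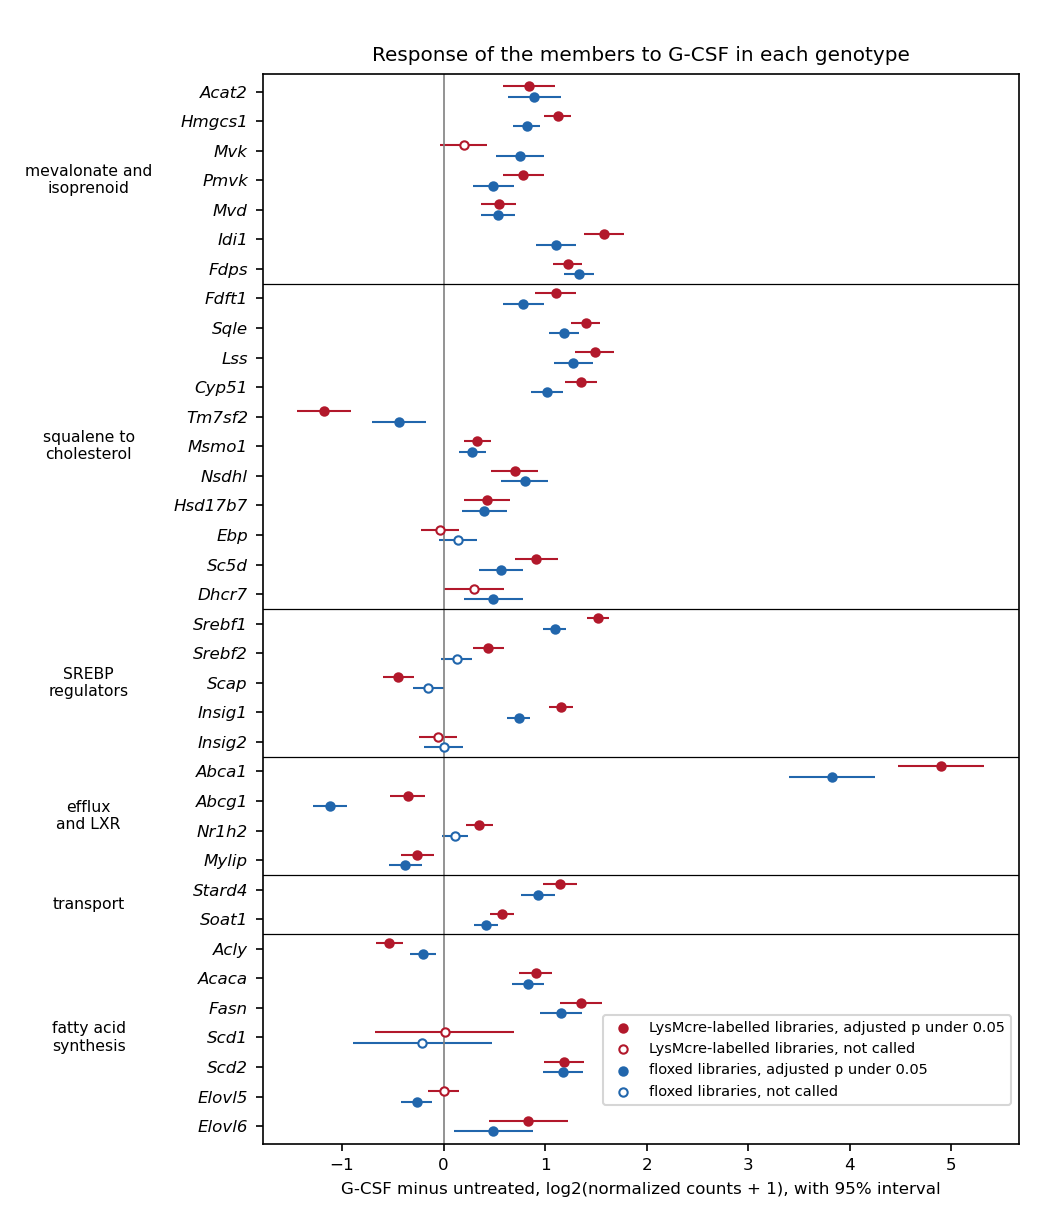
The x axis gives the difference between G-CSF and untreated libraries in log2(normalized counts + 1), with its 95% interval, for every member in LysMcre-labelled (red) and floxed (blue) libraries. Filled points have an adjusted p under 0.05. Abca1 stands farthest right at 4.90 and 3.82, and Tm7sf2 and Abcg1 lie on the left in both genotypes.

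The enzymes that lead to the isoprenoid diphosphates rose almost as a block. With G-CSF, 6 of the 7 were higher in LysMcre-labelled libraries (median difference 0.84) and 7 of 7 in floxed libraries (0.82). Hmgcs1, the cytosolic HMG-CoA synthase at the head of the route, had 3430, 3259 and 2950 normalized counts in LysMcre-labelled libraries with G-CSF, against 1451, 1405 and 1557 without. In floxed libraries it had 2846, 2841 and 2740 with G-CSF, against 1549, 1560 and 1671 without. Treated and untreated libraries did not overlap in either genotype, and the log2 differences were 1.12 ± 0.06 and 0.82 ± 0.06 (SE; adjusted p = 3.12e-10 and 2.86e-08).

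Idi1, the isomerase that makes dimethylallyl diphosphate, rose most of the 7 in LysMcre-labelled libraries. It had 525, 630 and 544 normalized counts with G-CSF, against 174, 187 and 207 without, a log2 difference of 1.58 ± 0.09 (adjusted p = 5.95e-10). Floxed libraries had 452, 475 and 507 with G-CSF, against 224, 212 and 228 without, a difference of 1.11 ± 0.09. Fdps, the farnesyl diphosphate synthase, had 934, 932 and 848 with G-CSF in LysMcre-labelled libraries, against 389, 383 and 390 without, and 997, 1010 and 929 with G-CSF in floxed libraries, against 396, 405 and 362 without. Its differences, 1.22 ± 0.07 and 1.33 ± 0.07, were close in size in the 2 genotypes. Acat2, the thiolase that joins acetyl-CoA units, rose by 0.84 and 0.89, and Mvd by 0.54 and 0.54, in LysMcre-labelled and floxed libraries.

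The kinases of the route moved apart. Mvk, the mevalonate kinase, had 217, 234 and 223 normalized counts in LysMcre-labelled libraries with G-CSF, against 205, 193 and 189 without. Among floxed libraries the values were 269, 332 and 255 with G-CSF, against 163, 188 and 154 without. The groups did not overlap in either genotype, but the difference of 0.20 ± 0.11 was not called in LysMcre-labelled libraries (adjusted p = 0.135) and that of 0.75 ± 0.11 was called in floxed libraries (adjusted p = 3.52e-05). Pmvk, which adds the next phosphate, rose in both, by 0.78 ± 0.09 and 0.49 ± 0.09.

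From squalene to cholesterol the responses were uneven. With G-CSF, 8 of 11 enzymes rose and 1 fell in LysMcre-labelled libraries (median 0.70), and 9 rose and 1 fell in floxed libraries (0.56). Those that rose by more than 1 on the log2 scale in both genotypes acted early: Sqle (squalene epoxidase) by 1.40 and 1.18, Lss (lanosterol synthase) by 1.49 and 1.28, and Cyp51 (lanosterol demethylase) by 1.35 and 1.02, in LysMcre-labelled and floxed libraries. Lss had 513, 583 and 497 normalized counts in LysMcre-labelled libraries with G-CSF, against 209, 177 and 180 without, and 431, 446 and 413 in floxed libraries with G-CSF, against 175, 170 and 185 without. Treated and untreated libraries stood apart in both genotypes. Fdft1, the squalene synthase, rose by 1.10 ± 0.09 and 0.78 ± 0.09. The strand setting of the counting is not given in the sources used here, and exons of Fdft1 overlap those of Ctsb on the other strand, which averaged 12920 normalized counts and rose by 2.55 and 1.61, so the Fdft1 values are uncertain. Cyp51 overlaps Akap9 in the same way, and Akap9 differed by -0.01 and 0.04 (not called).

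Tm7sf2 was the sterol enzyme that fell. It encodes a reductase of the double bond that CYP51 leaves in the sterol ring, a step that the lamin B receptor, product of Lbr, also catalyses. Tm7sf2 had 54.3, 63.7 and 62.3 normalized counts in LysMcre-labelled libraries with G-CSF, against 127, 150 and 136 without. The floxed values were 103, 102 and 88.5 with G-CSF, against 127, 139 and 133 without. The groups did not overlap in either genotype, and the log2 differences were -1.18 ± 0.12 (adjusted p = 5.99e-07) and -0.44 ± 0.12 (adjusted p = 0.00782). Lbr moved the other way, by 1.36 in LysMcre-labelled and 1.07 in floxed libraries. Exons of Tm7sf2 overlap those of Vps51 on the same strand. Vps51 averaged 1197 normalized counts and differed by -0.37 (called lower) and -0.15 (not called), so reads of the pair may have been shared.

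Later enzymes rose less or were not called. Sc5d, a sterol desaturase, rose by 0.91 and 0.56, and Nsdhl, which removes carbon at the ring's methyl positions together with Msmo1, by 0.70 and 0.80, in LysMcre-labelled and floxed libraries. Msmo1 rose by 0.33 and 0.28 and Hsd17b7, the keto reductase of the same complex, by 0.43 and 0.40. Under equal library totals the LysMcre-labelled calls of Msmo1 and Hsd17b7 were lost, at 0.07 and 0.17. Dhcr7, the last reductase of 1 branch, had 201, 206 and 184 normalized counts in LysMcre-labelled libraries with G-CSF, against 148, 169 and 162 without (0.30 ± 0.14, not called, adjusted p = 0.0705). In floxed libraries it had 158, 239 and 227 with G-CSF, against 155, 139 and 144 without, and was called higher by 0.49 ± 0.14. Ebp, the sterol isomerase, was called in neither genotype, with 95% intervals of -0.23 to 0.15 in LysMcre-labelled and -0.04 to 0.33 in floxed libraries. Under equal library totals it was called lower in LysMcre-labelled libraries, at -0.30.

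Of the 5 regulators, 3 rose and 1 fell with G-CSF in LysMcre-labelled libraries (median 0.44), and 2 rose in floxed libraries (0.13). Srebf1, whose product favours fatty acid genes, had 3012, 3131 and 2931 normalized counts in LysMcre-labelled libraries with G-CSF, against 1072, 1050 and 1036 without. Floxed libraries had 2162, 2051 and 1946 with G-CSF, against 961, 954 and 967 without. The 4 groups did not overlap one another, and the log2 differences with G-CSF were 1.52 ± 0.05 and 1.09 ± 0.05 (adjusted p = 1.14e-12 and 1.41e-10). Srebf2, whose product favours sterol genes, had 7263, 8240 and 8688 in LysMcre-labelled libraries with G-CSF, against 5747, 5733 and 6315 without, a difference of 0.44 ± 0.07. Among floxed libraries the values were 7204, 6534 and 6298 with G-CSF, against 5968, 5958 and 6372 without, groups that overlapped (0.13 ± 0.07, not called). Per kilobase, Srebf2 stood above Srebf1 in every group, with 1122 against 537 in LysMcre-labelled G-CSF libraries and 849 against 171 in floxed untreated ones. Srebf1 overlaps Rai1 on the other strand, which differed by -0.28 and -0.17.

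Insig1, itself an SREBP target that closes the feedback loop, rose, and its paralog Insig2 was not called on the deposited scale. Insig1 had 1669, 1832 and 1691 normalized counts in LysMcre-labelled libraries with G-CSF, against 755, 794 and 776 without, and 1440, 1385 and 1410 in floxed libraries with G-CSF, against 852, 856 and 831 without. No treated library overlapped an untreated one, and the differences were 1.16 ± 0.05 and 0.74 ± 0.05 (adjusted p = 3.80e-11 and 1.68e-08). Insig2 averaged 328 ± 29.6 and 340 ± 24.2 in LysMcre-labelled libraries with and without G-CSF, and 344 ± 15.4 and 345 ± 22.6 in floxed libraries. Its 95% intervals were -0.24 to 0.14 and -0.19 to 0.19. Under equal library totals Insig2 was called lower in LysMcre-labelled libraries, at -0.31. Scap fell in LysMcre-labelled libraries, with 687, 681 and 703 with G-CSF, against 892, 961 and 967 without (-0.44 ± 0.07). The floxed values were 888, 806 and 732 with G-CSF, against 919, 867 and 897 without (-0.15 ± 0.07, not called, and called lower at -0.24 under equal library totals).

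Of all members Abca1 had the largest difference with G-CSF in both genotypes, and the other exporter, Abcg1, moved the opposite way. Abca1 encodes the pump that loads cholesterol onto lipid-poor apolipoprotein, and Abcg1 the pump that loads it onto mature high-density lipoprotein. Abca1 had 9328, 10333 and 11466 normalized counts in LysMcre-labelled libraries with G-CSF, against 476, 314 and 277 without. In floxed libraries it had 4255, 3861 and 4648 with G-CSF, against 239, 262 and 425 without. Every treated library stood above every untreated one, and every LysMcre-labelled treated library above every floxed treated one. The log2 differences with G-CSF were 4.90 ± 0.20 in LysMcre-labelled and 3.82 ± 0.20 in floxed libraries (adjusted p = 8.11e-12 and 3.70e-10).

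Abcg1 fell. It had 908, 833 and 880 normalized counts in LysMcre-labelled libraries with G-CSF, against 1084, 1195 and 1076 without (-0.35 ± 0.08, adjusted p = 0.00104). Floxed libraries had 499, 460 and 481 with G-CSF, against 1008, 956 and 1187 without (-1.12 ± 0.08, adjusted p = 1.16e-08). Treated and untreated libraries did not overlap in either genotype, and the difference was larger in size in floxed libraries. Per kilobase, the order of the pumps turned round with G-CSF. Abca1 stood at 1001 and Abcg1 at 120 in LysMcre-labelled G-CSF libraries, against 34.3 and 153 in untreated ones. In floxed libraries these levels were 411 and 65.8 with G-CSF, against 29.8 and 144 without. The summed monocyte and macrophage markers were lower with G-CSF in both genotypes, as given above, and their part in the exporters' values was not tested.

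The remaining LXR genes moved little. Nr1h2, which encodes LXR beta, had 4176, 4472 and 4570 normalized counts in LysMcre-labelled libraries with G-CSF, against 3293, 3480 and 3573 without. The difference of 0.35 ± 0.06 was called, and was lost at 0.09 under equal library totals. In floxed libraries Nr1h2 had 4047, 3692 and 3473 with G-CSF, against 3369, 3444 and 3518 without (0.12 ± 0.06, not called). Mylip, an LXR-induced ubiquitin ligase that acts on lipoprotein receptors, fell by 0.26 in LysMcre-labelled and by 0.38 in floxed libraries. Of the 4 export and LXR genes, 2 thus rose and 2 fell with G-CSF in LysMcre-labelled libraries (median 0.05), and 1 rose and 2 fell in floxed libraries (median -0.13).

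Both genes of sterol transport and storage rose. Stard4, which carries sterol between membranes, had 1229, 1118 and 1032 normalized counts in LysMcre-labelled libraries with G-CSF, against 520, 498 and 505 without, and 1057, 1052 and 946 in floxed libraries with G-CSF, against 546, 488 and 568 without. Its differences were 1.15 ± 0.08 and 0.93 ± 0.08, without overlap. Soat1, which esterifies cholesterol for storage, rose by 0.58 ± 0.06 and 0.42 ± 0.06.

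**Figure D3:**
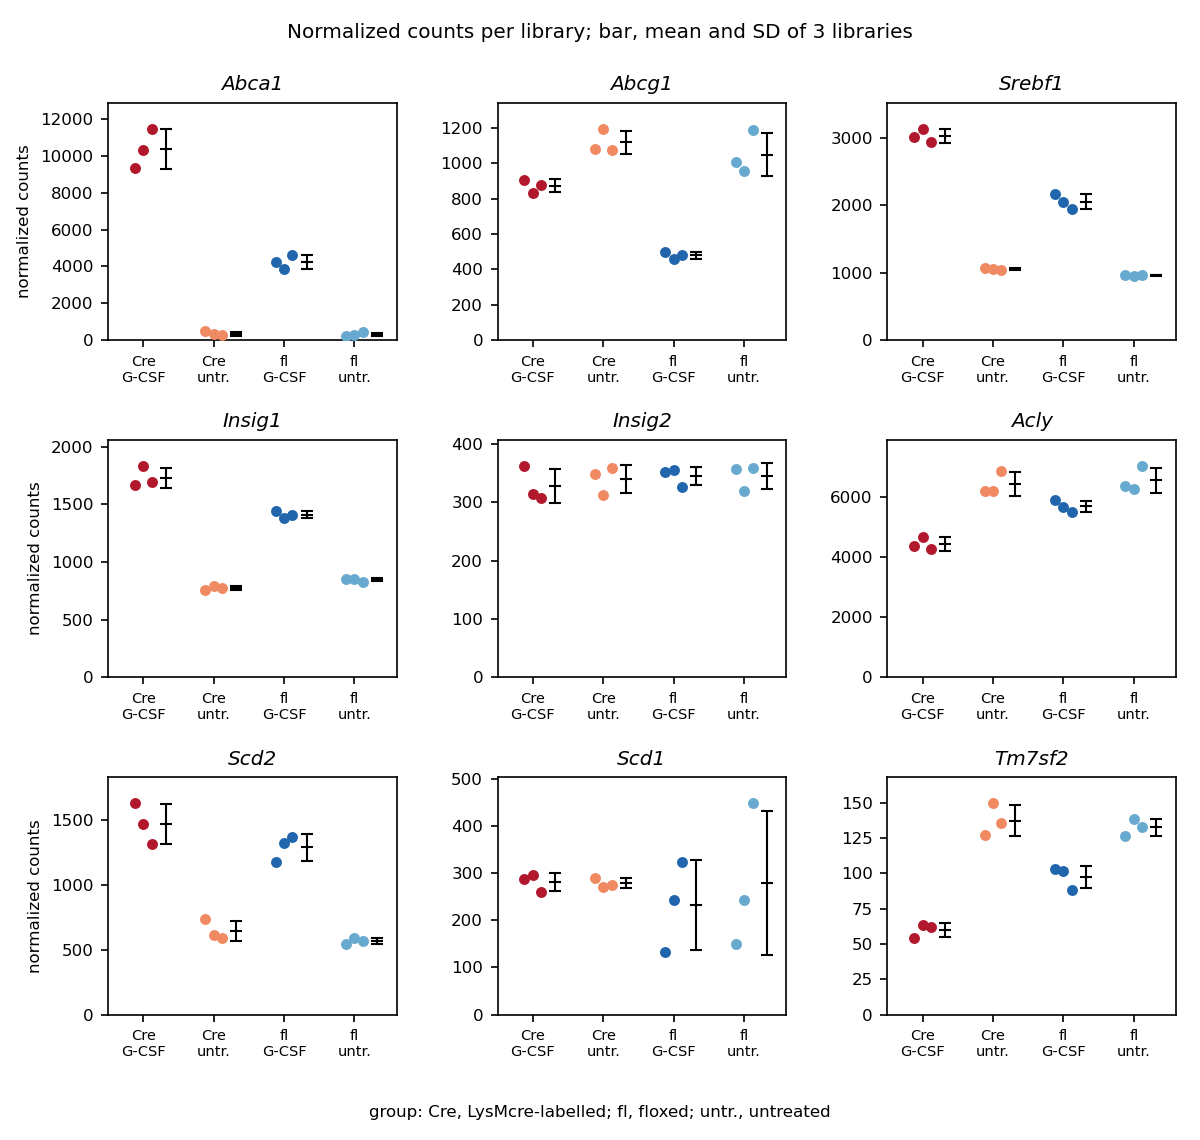
Each point is the normalized count of 1 library and the bars give the mean and SD of the 3 libraries of a group, for 9 members, on axes that start at 0. Abca1 and Abcg1, Insig1 and Insig2, and Scd2 and Scd1 are pairs of related proteins with unlike responses. The Scd1 points of the floxed groups spread between 133 and 448, while the LysMcre-labelled ones lie between 261 and 296.

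Fatty acid synthesis genes rose in part. With G-CSF, 4 of 7 rose and 1 fell in LysMcre-labelled libraries (median 0.83), and 4 rose and 2 fell in floxed libraries (0.49). Fasn, the fatty acid synthase, had 1397, 1435 and 1313 normalized counts in LysMcre-labelled libraries with G-CSF, against 622, 567 and 446 without, and 1132, 1121 and 1262 in floxed libraries with G-CSF, against 512, 548 and 513 without. The groups did not overlap, and the differences were 1.35 ± 0.10 and 1.16 ± 0.10 (adjusted p = 7.88e-09 and 9.71e-08). Acaca, the acetyl-CoA carboxylase that feeds Fasn with malonyl-CoA, rose by 0.91 ± 0.07 and 0.83 ± 0.07.

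Acly, whose product makes cytosolic acetyl-CoA from citrate for both routes, fell. It had 4374, 4680 and 4255 normalized counts in LysMcre-labelled libraries with G-CSF, against 6198, 6197 and 6873 without (-0.53 ± 0.06, adjusted p = 1.74e-06). Among floxed libraries the values were 5891, 5653 and 5506 with G-CSF, against 6378, 6259 and 7021 without (-0.20 ± 0.06, adjusted p = 0.0122). Neither pair of groups overlapped. The floxed call was lost without floxed untreated library 3, at -0.15. Per kilobase, Acly still exceeded Fasn in every group, with 840 against 126 in LysMcre-labelled G-CSF libraries.

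The desaturase genes Scd1 and Scd2, neighbours on chromosome 19 (chr19:44394455-44407879 and chr19:44293674-44306864, GRCm38), were called differently: Scd2 rose in both genotypes and Scd1 was called in neither. Scd2 had 1631, 1471 and 1320 normalized counts in LysMcre-labelled libraries with G-CSF, against 735, 615 and 592 without, and 1178, 1324 and 1372 in floxed libraries with G-CSF, against 545, 594 and 572 without. Its differences were 1.19 ± 0.09 and 1.18 ± 0.09, almost the same in both genotypes. Scd1 had 288, 296 and 261 in LysMcre-labelled libraries with G-CSF, against 290, 272 and 276 without, and 133, 243 and 323 in floxed libraries with G-CSF, against 149, 243 and 448 without. The groups overlapped, and the 95% interval of its difference was -0.67 to 0.70 in LysMcre-labelled libraries. That interval rests on 1 spread shared by all 4 groups in the fit, and is widened by the floxed libraries. The coefficient of variation of Scd1 was 6.53% and 3.51% in LysMcre-labelled libraries with and without G-CSF, against 40.8% and 54.5% in floxed ones. The LysMcre-labelled means were 282 and 279. In floxed libraries Scd1 rose with library number, both with G-CSF and without. Of the elongases, Elovl6, which extends saturated chains, rose by 0.83 ± 0.18 in LysMcre-labelled libraries and by 0.49 ± 0.18 in floxed libraries. The floxed call of Elovl6 (adjusted p = 0.0380) had overlapping groups. It was lost without floxed untreated library 1 (0.37) or 3 (0.53), without floxed G-CSF library 2 (0.37) or 3 (0.41), under equal library totals (0.40) and when only the groups compared were fitted (0.49). Elovl5, which extends polyunsaturated chains, differed by 0.00 ± 0.07 in LysMcre-labelled libraries and fell by 0.27 in floxed libraries. Under equal library totals it was called lower in LysMcre-labelled libraries too, at -0.26.

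Sterol synthesis, fatty acid synthesis and export were also set side by side by library. Averaged over the 18 sterol synthesis enzymes, log2 values relative to the mean of floxed untreated libraries were 0.74, 0.76 and 0.64 in LysMcre-labelled G-CSF libraries, against -0.06, -0.03 and 0.04 in LysMcre-labelled untreated ones. In floxed libraries these averages were 0.68, 0.74 and 0.65 with G-CSF, against 0.00, -0.02 and 0.01 without, so the G-CSF groups of the genotypes overlapped. For the 7 fatty acid genes they were 0.61, 0.60 and 0.45 in LysMcre-labelled G-CSF libraries, against 0.11, 0.00 and -0.06 in untreated ones, and 0.22, 0.48 and 0.57 in floxed G-CSF libraries, against -0.17, 0.01 and 0.16 in floxed untreated ones. The fatty acid average of the genotypes overlapped with G-CSF as well. For the 4 export and LXR genes they were 1.21, 1.18 and 1.33 in LysMcre-labelled G-CSF libraries and 0.66, 0.54 and 0.63 in floxed G-CSF libraries, which did not overlap, against 0.16, 0.10 and -0.02 in LysMcre-labelled untreated and -0.10, -0.08 and 0.19 in floxed untreated ones. Abca1, at 4.90 and 3.82, weighs on this average: the median difference of the 4 genes with G-CSF was 0.05 and -0.13, and 2 of them fell in each genotype. By count, 14 of 18 sterol enzymes rose and 1 fell in LysMcre-labelled libraries, and 16 rose and 1 fell in floxed libraries.

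Without G-CSF, 0 of 36 members differed by genotype in limma, 0 in edgeR and 0 in DESeq2, where limma called 0.115% of all genes in either direction. At an unadjusted p under 0.05 there were 4 (11.1%), where 3.34% of all genes passed: Sqle (-0.19), Srebf1 (0.13), Idi1 (-0.23) and Insig1 (-0.13). Member differences in this comparison ran between -0.23 and 0.22 with a median of 0.01.

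With G-CSF, 12 members were higher and 4 lower in LysMcre-labelled than in floxed libraries, where 17.1% of all genes were called higher and 18.9% lower. These members make up 33.3% higher and 11.1% lower of the 36. Under equal library totals, which shifted the median of all genes to -0.13 and the share of calls that were higher from 47.5% to 28.2%, 7 members (19.4%) were higher and 7 (19.4%) lower, where 11.1% of all genes were called higher and 28.2% lower. Under quantile normalization 10 (27.8%) were higher and 4 (11.1%) lower, where 16.4% of all genes were called higher and 19.8% lower. In all 16 alternatives 8 members kept their calls: Abca1 (1.28 ± 0.20), Abcg1 (0.86 ± 0.08), Srebf1 (0.56 ± 0.05), Cyp51 (0.34 ± 0.07), Insig1 (0.29 ± 0.05) and Nr1h2 (0.24 ± 0.06) higher, and Tm7sf2 (-0.69 ± 0.12) and Acly (-0.36 ± 0.06) lower. By role among the members, 3 of 4 export and LXR genes were higher, and 3 of 5 regulators were higher with 1 lower. Among sterol synthesis enzymes 5 of 18 were higher and 2 lower, among fatty acid genes 1 of 7 was higher and 1 lower, and neither transport gene was called.

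**Figure D4:**
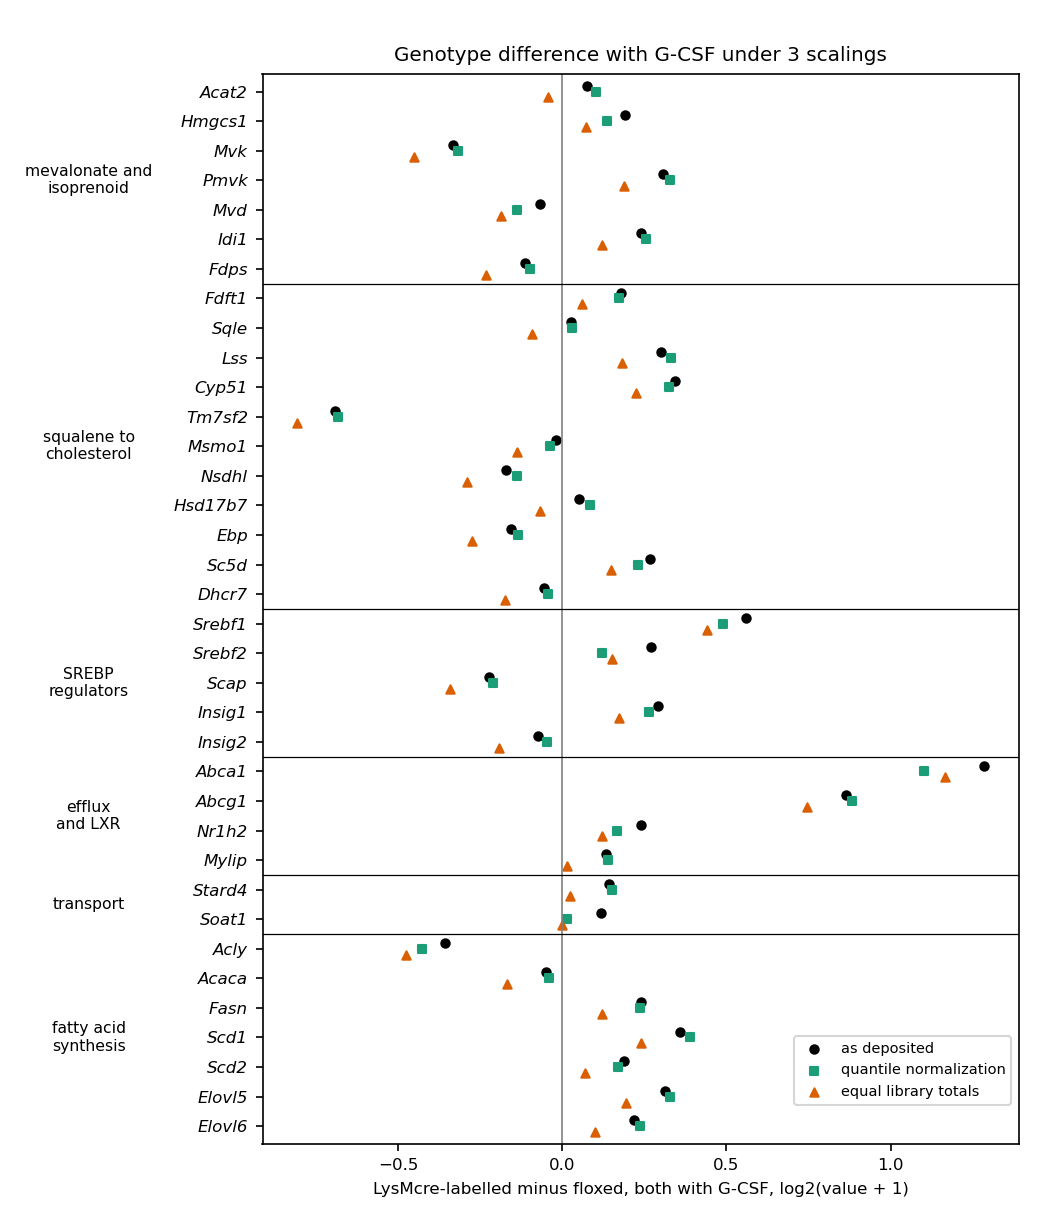
The x axis gives the difference between LysMcre-labelled and floxed libraries, both with G-CSF, in log2(value + 1), for every member under 3 scalings of the libraries. Equal library totals move all points left. Abca1, Abcg1 and Srebf1 stay right of 0 and Tm7sf2 and Acly left of it under each scaling.

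The other 8 genotype calls with G-CSF were lost in at least 1 alternative. Equal library totals ended the calls of Hmgcs1 (0.19 as deposited, 0.07), Pmvk (0.31, then 0.19), Lss (0.30, then 0.18), Sc5d (0.27, then 0.15) and Elovl5 (0.31, then 0.19). Quantile normalization ended those of Hmgcs1 (0.14), Sc5d (0.23) and Srebf2 (0.27 as deposited, 0.12). The call of Hmgcs1 was also lost without LysMcre-labelled G-CSF library 1 (0.14) or 2 (0.18), or floxed G-CSF library 2 (0.20) or 3 (0.17). For Pmvk this held without LysMcre-labelled G-CSF library 2 (0.23), or floxed G-CSF library 2 (0.30) or 3 (0.25), and for Lss without LysMcre-labelled G-CSF library 2 (0.23) or floxed G-CSF library 3 (0.27). Sc5d, with an adjusted p of 0.0497, was lost without LysMcre-labelled G-CSF library 2 (0.26) or 3 (0.23), or any of the floxed G-CSF libraries (0.26, 0.28 and 0.26), and at a pseudocount of 0.5 (0.27). Mvk, lower by label at -0.33, was lost without LysMcre-labelled G-CSF library 1 (-0.31) or 3 (-0.33) or floxed G-CSF library 2 (-0.22). Scap, at -0.22, was lost without LysMcre-labelled G-CSF library 2 (-0.21) or floxed G-CSF library 1 (-0.15) or 2 (-0.22), and when only the groups compared were fitted (-0.22).

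The G-CSF response itself differed between the genotypes for 12 members by the interaction term, 8 of them with a positive term, where 10.9% of all genes were called with a positive term and 11.5% with a negative one. For Abca1 the response was larger by 1.07 ± 0.28 in LysMcre-labelled libraries (adjusted p = 0.0119), and for Abcg1 the fall was smaller by 0.77 ± 0.11 (adjusted p = 0.000142). Both genotypes therefore raised Abca1 and lowered Abcg1, and LysMcre-labelled libraries ended higher in both. Srebf1 (0.43 ± 0.07) and Insig1 (0.42 ± 0.08) rose more in LysMcre-labelled libraries, and Tm7sf2 (-0.74 ± 0.17) and Acly (-0.33 ± 0.09) fell more. For Mvk the term was -0.56 ± 0.16, made up of a genotype difference of -0.33 with G-CSF and 0.22 without. These 7 calls held in all 21 alternatives. Under equal library totals 4 members (11.1%) had a positive and 4 (11.1%) a negative called term, with a median of all genes of -0.18. Under that scaling 6.44% of all genes had a positive and 21.5% a negative called term.

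The interaction was less firm for 5 further members. Idi1 (0.47 ± 0.13) was made up of 0.24 with G-CSF and -0.23 without, neither called by itself, and it lost its call under equal library totals (0.30) or without LysMcre-labelled G-CSF library 2 (0.39). Hmgcs1 (0.31) lost it under equal library totals (0.14), quantile normalization (0.23), or without LysMcre-labelled untreated library 2 (0.27) or floxed untreated library 3 (0.27). Cyp51 (0.33) lost it in 10 alternatives, among them equal library totals (0.16), quantile normalization (0.29) and the removal of LysMcre-labelled G-CSF library 1 or 2, LysMcre-labelled untreated library 1 or 2, floxed G-CSF library 1 or any floxed untreated library, with values between 0.27 and 0.33 after removal. Srebf2 (0.31) lost it in 11, among them equal library totals (0.14), quantile normalization (0.13) and the removal of LysMcre-labelled G-CSF library 2 or 3, LysMcre-labelled untreated library 1 or 2, floxed G-CSF library 2 or 3 or any floxed untreated library, with values between 0.26 and 0.33. Scap (-0.30) lost it in 11 as well, with the replicate block (-0.30) and on the removal of any LysMcre-labelled G-CSF or floxed untreated library, LysMcre-labelled untreated library 2 or 3, or floxed G-CSF library 1 or 2, with values between -0.32 and -0.23.

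Other genes of the same pathways were taken from lists by function. Of 26 tested genes of sterol and SREBP metabolism, 12 rose and 11 fell with G-CSF in LysMcre-labelled libraries, and 9 rose and 9 fell in floxed libraries, with medians of -0.03 and -0.01. The shares of all genes called higher and lower, for these lists too, are 31.1% and 31.6% in LysMcre-labelled and 24.1% and 24.6% in floxed libraries. Besides Lbr, Gramd1a, which moves cholesterol from the plasma membrane to the endoplasmic reticulum, rose by 1.52 and 0.60 in LysMcre-labelled and floxed libraries. Tmem97, a sterol-responsive membrane protein, rose by 1.04 and 1.22. Cyp27a1, which makes an oxidized sterol that LXR senses, fell by 1.54 in LysMcre-labelled libraries and differed by -0.59 in floxed libraries (not called). Of 10 tested genes of export and LXR response, 3 rose and 5 fell in LysMcre-labelled libraries, and 3 rose and 4 fell in floxed libraries. Among them Rxra, the partner receptor of LXR, fell by 1.32 and 1.04, Arl4c, an LXR target, by 0.99 and 1.48, and Nceh1, a cholesteryl ester hydrolase, by 1.53 and 1.32. Scarb1, a high-density lipoprotein receptor, rose by 0.58 and 1.20. By genotype label with G-CSF, 1 of these 10 genes was higher and 3 were lower, with a median of -0.17. Of all genes, 17.1% were called higher and 18.9% lower in that comparison. Scarb1 was lower by 0.55 and Nceh1 by 0.30, while Arl4c was higher by 0.63.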

How the data were processed

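Titles gave the groups, but the 3 LysMcre-labelled G-CSF libraries, whose titles name both G-CSF and untreated, were placed by their description. The column of LysMcre-labelled untreated library 2 carries the number 3, and the number in the title was used. The deposited values are a normalized count signal per gene, read from the values as gene counts that the authors divided by 1 size factor per library. At a tolerance of 0.01 read, 100% of values came out as whole reads. Per the submitters' processing notes the build was mm10. Which aligner, counter, gene models and strand option were used is not given in the sources used here. The table has 2 further columns that match no sample and were not used, and 17 gene names that had turned into dates.

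Values were tested with limma 3.58.1 in R 4.3.3 on log2(value + 1), with a trended prior, all 12 libraries in 1 fit (8 residual degrees of freedom), two-sided p-values and Benjamini-Hochberg adjustment over 13915 genes. Errors of log2 differences are SE, with intervals at 95%. Because whole reads were recovered, edgeR 4.0.16 and DESeq2 1.42.0 were run on them as alternatives. edgeR called 13, 5097, 8734, 6897 and 3217 genes for genotype without G-CSF, genotype with G-CSF, G-CSF in LysMcre-labelled libraries, G-CSF in floxed libraries and the interaction. Other alternatives were pseudocounts of 0.5 and 5, no filter, a mean of at least 50, equal library totals, quantile normalization, a replicate block, only the groups compared, and each library left out. Scripts were tested on simulated data. Replicates of a group differed by 3.55 to 12.9 in chi-square per gene, so none was counted as a duplicate. Gene positions and exon lengths are those of GENCODE on GRCm38, and promoter windows those of RefSeq on GRCm38.p6.

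All 36 members are named, with Socs3 and Lyz2 as label checks. Of other pathway genes, the rule takes the 3 with the largest called difference per list and comparison whose higher group averages 50 or more, and those given here were taken from among them. The members and lists were chosen with earlier results of these data known.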

Additional observations from a re-analysis of the deposited data

Results flagged for a closer look

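For 12 members the change with G-CSF in LysMcre-labelled libraries differed from the change in floxed libraries by the interaction term of the limma fit, at an adjusted p under 0.05 over all genes. The values are the log2 change in LysMcre-labelled libraries minus that in floxed libraries. Among exporters the terms were 1.07 for Abca1 and 0.77 for Abcg1. Among regulators they were 0.43 for Srebf1, 0.42 for Insig1, 0.31 for Srebf2 and -0.30 for Scap. Among sterol enzymes they were 0.47 for Idi1, 0.33 for Cyp51, 0.31 for Hmgcs1, -0.56 for Mvk and -0.74 for Tm7sf2. Among fatty acid genes Acly had -0.33. The libraries labelled LysMcre had lower Lyz2, the gene at the Cre locus, but did not have lower Socs3. A deletion of Socs3 in them therefore rests on the labels, and these terms are differences by label.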

How the results depend on the processing

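Of 180 member results, 36 members in 5 comparisons, 88 were called. Of these, 70 kept their call in every alternative, 18 lost it in at least 1 and 0 changed sign with a call, while 17 uncalled results gained one in at least 1. Elovl5 with G-CSF in LysMcre-labelled libraries, at 0.00, became -0.26 under equal library totals, where Insig2 (-0.31) and Ebp (-0.30) were called lower as well. For genotype without G-CSF, the 16 genes called among all genes became 28 with DESeq2, and 9 to 21 with 1 library left out. The lowest count, 9, was without floxed untreated library 1, and the count was 10 without LysMcre-labelled untreated library 1. With 1 library left out, called members numbered 30 to 30 for G-CSF in LysMcre-labelled libraries, 28 to 31 in floxed libraries, 11 to 16 for genotype with G-CSF and 8 to 13 for the interaction. Same-numbered libraries correlated between -0.33 and 0.45 in their deviations from group means, over 0.1 in 5 of 18 pairs, many of which cross the genotypes. Within floxed libraries, untreated and G-CSF libraries 1, 2 and 3 correlated at 0.45, 0.35 and 0.06. Within LysMcre-labelled libraries the values were 0.29, -0.03 and 0.02. LysMcre-labelled untreated library 2, whose column carries the number 3, correlated at 0.26 with LysMcre-labelled G-CSF library 3. Other differently numbered libraries reached such values too. LysMcre-labelled untreated library 1 and floxed G-CSF library 3 correlated at 0.35, and floxed untreated library 2 and floxed G-CSF library 3 at 0.27. Floxed untreated library 2 and floxed G-CSF library 1 stood at -0.45. The main fit pairs no libraries, and whether they are paired was not settled. With the replicate block, 30, 30, 16, 12 and 0 members were called for G-CSF in LysMcre-labelled libraries, G-CSF in floxed libraries, genotype with G-CSF, the interaction and genotype without G-CSF, and 11 of the 12 interaction calls were shared. The scarcest member, Tm7sf2, had 54.3 normalized counts in its lowest library, where 3 reads are worth at most 3.54. With 3 libraries a group and 1 spread shared by all groups, the intervals of Scd1 were wide, and its floxed libraries varied most.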

Other observations

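Genes of fatty acid activation, elongation and lipid handling outside the members moved in both directions, at shares near those of all genes in LysMcre-labelled libraries. Of 30 tested, 11 rose and 10 fell with G-CSF in LysMcre-labelled libraries, and the same numbers were called in floxed libraries, with median log2 differences of 0.12 and -0.03. Of all genes tested, 31.1% were called higher and 31.6% lower in LysMcre-labelled libraries, and 24.1% and 24.6% in floxed libraries. Acsl1, which activates long fatty acids with coenzyme A, fell by 2.91 in LysMcre-labelled and by 2.46 in floxed libraries. Within the elongation cycle that extends the products of fatty acid synthase, Hsd17b12, the ketoacyl reductase, rose by 2.16 and 1.36, while Tecr, the enoyl reductase, fell by 2.37 and 1.64. Fabp5, a fatty acid binding protein, rose by 1.72 and 2.56, and was lower by 0.81 in LysMcre-labelled than in floxed libraries with G-CSF. Lpl, the lipoprotein lipase, had a genotype difference of -1.04 with G-CSF. Without G-CSF, 0 of the 30 genes differed by genotype in limma, and 1 had an unadjusted p under 0.05.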
